A study of Mus musculus with 10 samples.

Results

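The comparison described here is between the start and the end of an osteogenic culture of MC3T3-E1 cells, a mouse calvarial pre-osteoblast line of which the study used a single subclone, so that all samples come from 1 clonal line. The members are the 4 libraries, of 10 in the series, that are labelled subconfluent (2 replicates, A and B) or 21 d (2 replicates, A and B). Subconfluent cells were still dividing in growth medium, αMEM with 10% serum and penicillin-streptomycin. The 21 d cells had grown to confluence in the same medium and were then kept for 21 d in αMEM with 10% serum and penicillin-streptomycin, with β-glycerophosphate at 10 mM and ascorbic acid at 50 µg/ml added. Both ends therefore differ in density, medium and time at once, and these cannot be told apart here. The other 6 libraries (confluent day 0, and 24 h and 14 d in osteogenic medium) were used for the spread and for the steps between the ends.

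Osteoblasts arise from dividing mesenchymal precursors that first multiply, then lay down a matrix rich in type I collagen, and at last mineralize it with the help of alkaline phosphatase and of acidic matrix proteins. Ascorbic acid is the cofactor of the prolyl and lysyl hydroxylases that collagen needs to fold, and β-glycerophosphate is a source of phosphate for mineral. MC3T3-E1 cells are a standard culture model of this sequence, in which a dividing layer turns over weeks into a nodular, mineralizing one.

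The total count on genes was 148950530 and 44736156 in the subconfluent libraries and 51970507 and 119183287 in the 21 d libraries. Genes with enough counts for a test numbered 20808. Across 16133 genes the log2 ratio of replicate A to B had a standard deviation (SD) of 0.303 in subconfluent cells and 0.287 at 21 d. Levels are given as RPKM, reads scaled to gene length and sequencing depth, and changes as the log2 fold change at 21 d against subconfluent with its standard error (SE), from edgeR's quasi-likelihood test with Benjamini-Hochberg adjusted p. A gene was called when the adjusted p was under 0.05 and the change was more than 2-fold. Nothing in the labels says that the replicates were separate cultures, so the p-values measure only the spread between these samples, which may be technical. By the column names, a different index pair was used for the libraries of the last 2 stages (14 d and 21 d) than for the earlier ones, so stage and library set cannot be told apart between the ends. The steps within each set (confluent against subconfluent, 24 h against confluent, and 21 d against 14 d) are therefore given beside the results. In bulk RNA, fewer cells of a type and less RNA per cell cannot be told apart.

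Of the 20808 genes tested, 3394 (16.3%) were called higher and 2346 (11.3%) lower at 21 d, and the median log2 fold change of all of them was 0.04. More than 16-fold changes were called for 556 genes in the upward and 149 in the downward direction. Counts of 0 in both libraries were found for 146 of the called genes in subconfluent cells and for 42 at 21 d. The single steps within the library sets had fewer calls: 1.43% of genes were called between subconfluent and confluent, 2.13% in the first 24 h of osteogenic medium and 3.97% between 14 d and 21 d (1.52% higher and 2.45% lower). Some genes differed more between the replicates of one stage than most did between the stages, with 150 genes in subconfluent cells and 161 at 21 d more than 8-fold apart in RPKM + 0.1. Few of those were called (12 and 6). One of them was Tyrobp, an immune adaptor chosen here after its values were seen, at 256 RPKM in replicate A and 0.268 in replicate B of 21 d, which edgeR did not call (adjusted p = 0.14) and DESeq2 did (adjusted p = 2.9e-07).

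**Figure D1:**
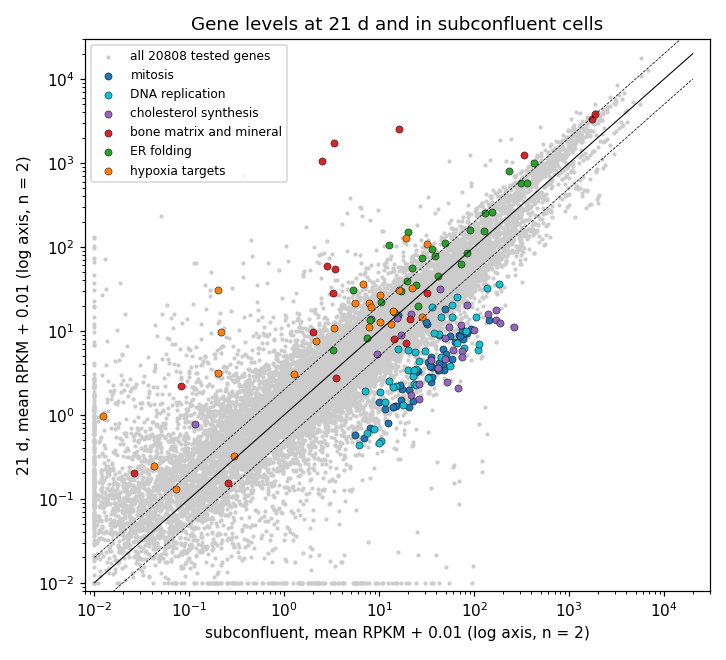
Mean level of each gene in subconfluent cells (x axis, RPKM + 0.01, log axis, 2 libraries) against that at 21 d (y axis, same scale). Grey points are the 20808 tested genes, coloured points the members of 6 gene lists, the solid line equal levels and the dashed lines 2-fold changes. Most mitosis, DNA replication and cholesterol genes lie below the lines, and most genes of bone matrix and mineral lie above.

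The osteoblast label was checked against defining markers: 7 of 10 osteoblast markers were called higher at 21 d and none lower, and their summed level went from 11470 and 11200 to 19490 and 17630 RPKM. Markers of several other cell types were below 0.1 RPKM in all 4 libraries. This held for 5 of 6 adipocyte markers (Adipoq, Plin1, Lep, Cidec and Cfd), for all 5 red cell, all 6 B and T cell and all 5 endothelial markers, and for 4 of 7 skeletal muscle markers (Myod1, Myog, Ckm and Myh1). Of the other muscle markers Acta1 was called lower, from 42.8 and 43.6 to 14.3 and 14.4 RPKM, and Des and Tnnt3 were not called. The sixth adipocyte marker, Fabp4, a fatty acid carrier, was called higher with 2 counts in subconfluent cells and 19 at 21 d, a ratio of 12.02 (95% counting interval 2.90 to 106.4), but not without subconfluent replicate A (adjusted p = 0.15) or 21 d replicate A (adjusted p = 0.064). Cartilage markers were present: of 8, Acan and Matn1 were below 0.1 RPKM, Sox9, Col9a1, Col10a1 and Comp were called higher and Matn3 lower. Their summed level went from 179 and 177 to 114 and 123 RPKM, most of it Col2a1, the collagen of cartilage, at 157 and 156 against 73.0 and 78.4 RPKM (log2 fold change -0.93, not called, but -1.09 and called lower with library size alone, where Sox9 at 0.95 was not called higher). Of 6 epithelial markers Epcam, Krt8 and Krt18 were below 0.1 RPKM, and Krt5, Krt14 and Cdh1 were called higher, with a summed level of 2.62 and 2.24 and then 9.75 and 11.2 RPKM, most of it Krt14, a keratin of basal epithelium. The call of Cdh1 was lost without any one of the 4 replicates (adjusted p from 0.052 to 0.21) and that of Krt5 without subconfluent replicate A, subconfluent replicate B or 21 d replicate B (adjusted p from 0.061 to 0.070). The part of these cell types in the results was not tested. Of 10 macrophage and osteoclast markers Ptprc, Adgre1, Acp5 and Calcr were below 0.1 RPKM. Ctsk was called higher, from 76.9 and 77.2 to 180 and 166 RPKM (log2 fold change 1.28, SE 0.11), and no marker of this list was called lower. Cd68, Csf1r, Itgam and Lyz2 were above 0.1 RPKM and not called. The summed level of the list, 95.1 and 97.0 RPKM in subconfluent cells, was 461 and 192 RPKM in replicates A and B of 21 d. The difference between those replicates lies mostly in Tyrobp. Of 6 osteocyte markers Dmp1, Mepe and Phex were called higher, with log2 fold changes of 4.32, 7.75 and 5.03, and Pdpn was not called. The late osteocyte genes Sost and Fgf23 were below 0.1 RPKM in all 4 libraries.

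The promoters of a few members are shown first because several gene lists that moved are known for a short sequence near their start sites. Each run is 150 bases of the RefSeq promoter (GRCm38.p6), 5′ to 3′ on the strand of the gene, with the motif in capitals. The gene shown is the member of its list with the largest change that held the motif upstream of the start. Mcm5, a subunit of the replicative helicase, stands for DNA replication and the E2F motif (TTNGCGC, 3 matches over both strands, 2 of which overlap). Its window is chr8:75109300-75109449 on the plus strand, from base -209 to -60 of the start.
Mcm5: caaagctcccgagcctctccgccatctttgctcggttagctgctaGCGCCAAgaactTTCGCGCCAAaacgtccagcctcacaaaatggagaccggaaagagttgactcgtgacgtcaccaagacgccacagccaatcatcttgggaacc
Kif15, a spindle kinesin, stands for mitosis and the CHR element (TTTGAA, here on the opposite strand), at chr9:122950931-122951080, plus strand, from base -150 to -1.
Kif15: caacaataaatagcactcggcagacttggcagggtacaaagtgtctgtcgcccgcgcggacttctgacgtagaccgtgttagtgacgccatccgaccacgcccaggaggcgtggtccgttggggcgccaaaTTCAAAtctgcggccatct
Hmgcs1, the HMG-CoA synthase of the cholesterol pathway, stands for the sterol element (TCACNCCAC), at chr13:119690154-119690303, plus strand, from base -197 to -48.
Hmgcs1: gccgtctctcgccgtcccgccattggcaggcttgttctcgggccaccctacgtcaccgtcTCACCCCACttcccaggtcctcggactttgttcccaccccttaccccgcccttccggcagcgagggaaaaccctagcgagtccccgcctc
Oas3, an antiviral oligoadenylate synthase, stands for the interferon response core (GAAANNGAA, 2 overlapping matches), at chr5:120777660-120777809, minus strand, from base -150 to -1.
Oas3: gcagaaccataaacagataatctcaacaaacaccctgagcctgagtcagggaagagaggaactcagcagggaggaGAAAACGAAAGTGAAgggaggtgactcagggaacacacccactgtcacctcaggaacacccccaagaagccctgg
Bglap, which encodes osteocalcin, stands for the RUNX site (ACCACA), at chr3:88384509-88384658, minus strand, from base -192 to -43.
Bglap: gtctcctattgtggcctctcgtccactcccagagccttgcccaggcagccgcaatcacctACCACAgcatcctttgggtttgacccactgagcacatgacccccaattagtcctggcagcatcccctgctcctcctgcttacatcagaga

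Promoters from 250 bases before to 50 after the start were at hand for 11700 of the tested genes, and each motif was searched on both strands. The CHR element was found in 27 of 39 mitosis promoters (69.2%) and in 12.5% of all 11700. The interferon core was found in 15 of 25 promoters of interferon response genes (60.0%) against 7.16% of all. For the E2F motif the shares were 11 of 33 DNA replication promoters (33.3%) against 10.4%, and for the RUNX site 5 of 13 bone matrix and mineral promoters (38.5%) against 13.1%. The sterol element was found in 1 of 21 cholesterol promoters (4.76%) against 1.06% of all. The CCAAT box (CCAAT), a general promoter motif, was in 81.0% of cholesterol, 76.9% of mitosis and 60.6% of DNA replication promoters, against 39.0% of all. It was in 46.15% of bone matrix and mineral and 32.0% of interferon response promoters. Part of these shares lay in the 50 bases after the start. In the 250 bases before it alone, the CHR share was 33.3% of mitosis promoters against 11.2% of all, the E2F share 18.2% of DNA replication promoters against 8.66%, the interferon share 48.0% against 6.15% and the RUNX share 30.8% against 11.1%. The windows are short and the matches describe letters, not binding.

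Most bone matrix and mineral genes rose. Of 18 tested, 12 were called higher and 1 lower, among them 7 of the 8 matrix proteins, with a median log2 fold change of 2.21 beside 0.04 for all genes. Ibsp, bone sialoprotein, an acidic protein that binds hydroxyapatite, was at 20.04 and 11.8 RPKM in subconfluent replicates A and B and at 2570 and 2509 RPKM at 21 d. The groups lay far apart, with a log2 fold change of 7.43 (SE 0.29, adjusted p = 3.8e-06). Its rise began before the osteogenic medium, with a log2 change of 3.62 from subconfluent to confluent and 2.46 in the next 24 h, and between 14 d and 21 d it changed by -0.81, which was not called. Omd, a keratan sulfate proteoglycan of mineralized tissue, went from 3.17 and 2.43 to 53.4 and 64.4 RPKM, a log2 fold change of 4.50 (SE 0.26, adjusted p = 1.5e-05). Bglap, whose promoter is shown above, was at 1.11 and 3.89 RPKM and then at 1087 and 995 RPKM (log2 fold change 8.94, SE 0.71). Its near-identical neighbour Bglap2 can share its reads, so the level of each alone is uncertain. Sparc (osteonectin) and Mgp, an inhibitor of calcification, rose by little more than 2-fold, with log2 fold changes of 1.12 (SE 0.10) and 1.06 (SE 0.21). With library size alone as the scaling both lay under 2-fold (0.97 and 0.90), as did Mgp without subconfluent replicate B (0.98).

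Genes that handle phosphate and pyrophosphate were split. Phospho1, the phosphatase of matrix vesicles, rose from 3.47 and 3.37 to 60.7 and 49.0 RPKM (log2 fold change 4.11, SE 0.13, adjusted p = 2.5e-06). It was higher still at 14 d, and its step from 14 d to 21 d was -2.45 on the log2 scale. Smpd3, a sphingomyelinase needed for mineralization, followed with a log2 fold change of 3.24 (SE 0.43), and Phex, the endopeptidase mutated in X-linked low phosphate rickets, with 5.03 (SE 0.27). Enpp1, which makes the mineral inhibitor pyrophosphate, rose 3.75 (SE 0.67) but stayed low, at 0.157 and 0.226 RPKM at 21 d. Ank, which carries pyrophosphate out of the cell, was at 31.76 and 32.0 RPKM and then at 31.75 and 24.5 RPKM, so that libraries of both ends were alike, with a log2 fold change of -0.07 (SE 0.16). Slc20a1, a phosphate importer, fell by 1.30 (SE 0.10) and was the only member called lower. Of 10 tested osteocyte genes 3 were called higher (30%, beside 16.3% of all genes) and none lower. One was Mepe, a phosphoprotein that regulates mineral, at 10 counts in both subconfluent libraries together and at 7.52 and 9.75 RPKM at 21 d, a ratio of 222 (95% counting interval 120 to 463).

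The collagens of the bulk matrix were not called between the ends. Col1a1, the main chain of type I collagen, was the strongest protein-coding gene of subconfluent cells, with 5655 and 5442 RPKM, and was at 5287 and 4900 RPKM at 21 d, a log2 fold change of -0.01 (SE 0.21). For Col1a2 the values were 3544 and 3478 against 3086 and 2975 RPKM (log2 fold change -0.10, SE 0.17). Their steps from 14 d to 21 d were -1.004 and -0.86, and those from 24 h to 14 d were 1.07 and 0.98. Of the 11 fibrillar collagens tested, 5 were called lower and none higher from 14 d to 21 d (median step -0.86), beside 2.45% of all genes called lower. From 24 h to 14 d, where the index pair changed, 5 were called higher and none lower, beside 930 of all 20808 genes called higher. Between the ends 2 of the 11 were called higher (18.2%, beside 16.3% of all genes) and none lower. These were Col24a1 and Col11a2, a chain of the minor type XI fibrils, from 0.329 and 0.386 to 64.2 and 64.8 RPKM (log2 fold change 7.62, SE 0.23, adjusted p = 2.5e-06). Of 15 nonfibrillar collagens 7 were called higher and none lower (4 higher when each sample had to hold at least 10 counts), among them the basement membrane collagen Col15a1, from 3.33 and 2.55 to 78.3 and 69.5 RPKM. Col22a1, a junction collagen, had 8 counts in both subconfluent libraries together and 4563 at 21 d, a ratio of 722 (95% counting interval 366 to 1673). Counting intervals here cover counting error only.

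Of 25 genes that process collagen 5 were called higher (20%) and 2 lower (8%), beside 16.3% and 11.3% of all genes. Of 11 prolyl and lysyl hydroxylase genes 2 were called higher and none lower (median 0.61). Of 14 chaperones, proteases and cross-linking enzymes 3 were called higher and 2 lower (median -0.23). P4ha1 and P4ha2, the catalytic subunits of collagen prolyl 4-hydroxylase, which uses ascorbic acid, rose from 33.5 and 30.6 to 100 and 115 RPKM and from 13.4 and 14.2 to 47.2 and 57.1 RPKM. Their log2 fold changes were 1.86 (SE 0.13) and 2.03 (SE 0.13). In the first 24 h of ascorbic acid neither was called, with log2 changes of 0.00 and 0.11. Fn1, fibronectin, on which collagen fibrils are laid, rose from 486 and 488 to 2816 and 2480 RPKM (log2 fold change 2.56, SE 0.31, adjusted p = 4.4e-04).

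Among matricellular proteins and matrix proteases the list medians were near that of all genes (0.20 and 0.10), the latter taking the other sign under some alternatives, and single genes moved in opposite directions. Tgfbi, a secreted adhesion protein induced by TGF-β, had the largest fall of the genes named here, from 33.2 and 32.6 to 0.483 and 0.742 RPKM. The groups did not overlap. Its log2 fold change was -5.60 (SE 0.23), with steps of -0.69, -1.56 and -0.68 within the library sets. Mmp13, a collagenase of hypertrophic cartilage and bone, rose from 9.73 and 8.59 to 83.8 and 98.0 RPKM (log2 fold change 3.43, SE 0.15, adjusted p = 5.5e-06). Adamts5, an aggrecanase, fell by 1.78 (SE 0.19). Timp4, an inhibitor of metalloproteases, had 10 counts in both subconfluent libraries together and was at 14.7 and 17.04 RPKM at 21 d, a ratio of 335 (95% counting interval 182 to 700).

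**Figure D2:**
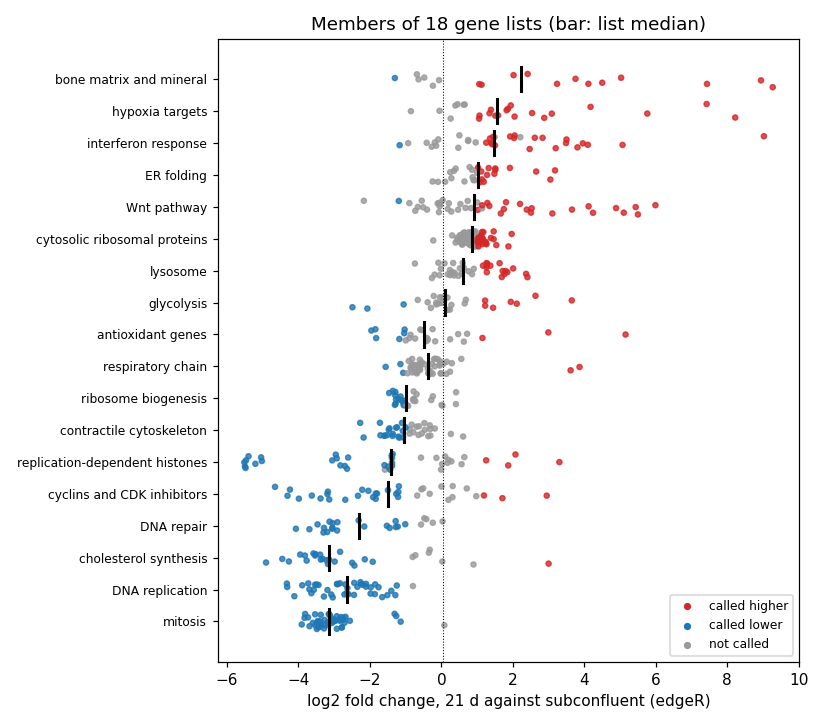
Log2 fold change at 21 d against subconfluent (x axis) of each tested member of 18 gene lists (y axis). Red points were called higher, blue lower, grey not called, and the black bar is the list median. Mitosis (median -3.15), cholesterol synthesis (-3.16) and DNA replication (-2.64) lie to the left, hypoxia targets (1.55) and bone matrix and mineral (2.21) to the right.

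The transcription factors that steer the lineage did not move as a block. Of 26 tested, 5 were called higher (19.2%) and 9 lower (34.6%), beside 16.3% and 11.3% of all genes (median -0.57). Tcf7, a partner of β-catenin, rose from 2.75 and 2.07 to 45.1 and 39.6 RPKM (log2 fold change 4.24, SE 0.18), and the homeobox activator Dlx3 from 0.194 and 0.211 to 6.41 and 6.20 RPKM (5.09, SE 0.21). Msx2, another homeobox factor, fell by 1.59 (SE 0.11). Of the early or restraining factors 7 of 14 were called lower and 2 higher. Id2, an inhibitor of basic helix-loop-helix factors, dropped from 36.1 and 36.5 to 3.16 and 3.45 RPKM (log2 fold change -3.34, SE 0.11, adjusted p = 2.5e-06). Its relative Id4 rose by 1.21 (SE 0.09), so the Id genes did not change alike.

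Nearly all tested genes of cell division fell. Of 42 DNA replication genes, 41 were called lower and none higher (median -2.64), and of 46 mitosis genes, 45 were called lower and none higher (median -3.15). The exceptions were Gins4 at -0.80 and Pttg1 at 0.08. Mcm5 was at 107 and 112 RPKM in subconfluent cells and at 5.34 and 6.32 RPKM at 21 d. The log2 fold change was -4.12 (SE 0.13, adjusted p = 2.5e-06). Rrm2, the subunit of ribonucleotide reductase made in S phase, fell from 110 and 112 to 6.05 and 7.68 RPKM (-3.90, SE 0.14). Plk1, a kinase that drives cells through mitosis, fell from 57.7 and 59.0 to 4.09 and 5.18 RPKM (-3.54, SE 0.13), and Kif15 from 12.9 and 11.9 to 0.669 and 0.923 RPKM (-3.83, SE 0.18).

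More than 1 log2 unit of this fall came after 14 d. The median step of the mitosis genes was -0.35 from subconfluent to confluent, -0.54 in the next 24 h and -1.84 from 14 d to 21 d, and for DNA replication the steps were -0.44, -0.36 and -1.40. In the last of these steps 42 of 46 mitosis and 29 of 42 DNA replication genes were called lower, beside 2.45% of all genes. On the log2 scale Mcm5 changed by -2.26 and Plk1 by -1.95 between 14 d and 21 d, both called. Of the cyclins, kinases and their regulators 22 of 35 were called lower and 3 higher. Ccne1 and Ccnb1, the cyclins of S phase entry and mitosis, fell, with log2 fold changes of -4.24 (SE 0.18) and -3.38 (SE 0.11), whereas Ccnd1 and Ccnd2, the cyclins that answer to growth factors, were not called (-0.33 and -0.56). Cdkn1a, the p21 inhibitor, rose from 74.1 and 77.8 to 225 and 232 RPKM (1.71, SE 0.10), and most of its rise, 1.20, came between subconfluent and confluent. Ccng2 (1.19, but 0.98 and not called without subconfluent replicate B) and the sparse Cdkn1c were also called higher. Cdkn1c had 3 counts in subconfluent cells and 24 at 21 d, a ratio of 10.1 (95% counting interval 3.07 to 52.5), and was not called without subconfluent replicate A (adjusted p = 0.30), 21 d replicate A (adjusted p = 0.10) or 21 d replicate B (adjusted p = 0.17).

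DNA repair genes (20 of 25 lower, none higher) fell as well. Of 38 replication-dependent histones, 23 were called lower and 4 higher (15 lower under the same count minimum). The H3 genes were the lowest, with Hist1h3a at -5.52, but copies of these genes are nearly identical and the call of any single one is uncertain. Of the 4 that rose, 3 encode linker histone H1. Hist1h1c went from 2.98 in both libraries to 24.9 and 29.3 RPKM (log2 fold change 3.30, SE 0.17). Uhrf1, which brings the maintenance methyltransferase to replicated DNA, fell from 82.4 and 84.0 to 4.25 and 5.93 RPKM (-3.91, SE 0.17), and the methyltransferase itself, Dnmt1, from 54.7 and 54.3 to 7.93 and 8.92 RPKM (-2.58, SE 0.18).

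Of the list of 37 histone methyltransferases and LSD1 partners 4 were called higher (10.8%) and 6 lower (16.2%), beside 16.3% and 11.3% of all genes, and 27 were not called. Ezh2, the methyltransferase of Polycomb complex 2 in dividing cells, fell from 22.6 and 21.5 to 5.64 and 6.25 RPKM (-1.77, SE 0.09), while its homolog Ezh1 rose from 2.105 and 1.86 to 6.04 and 6.08 RPKM (1.73, SE 0.15). Rcor2, a scaffold of LSD1 complexes, rose from 3.75 and 3.48 to 40.9 and 40.1 RPKM (3.60, SE 0.08, adjusted p = 1.6e-06).

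Genes of cholesterol synthesis fell together. Of 28 tested 21 were called lower and 1 higher (median -3.16). Fdps, which makes farnesyl diphosphate, stood at 261 and 269 RPKM and fell to 9.72 and 12.5 RPKM (log2 fold change -4.45, SE 0.24, adjusted p = 1.2e-05). Hmgcs1 fell from 190 and 181 to 11.8 and 13.3 RPKM (-3.77, SE 0.13). The groups were apart for both. Insig1, a sensor that holds SREBP back and is itself an SREBP target, fell by 2.99 (SE 0.09). Srebf2, which encodes SREBP2, fell by 1.92 (SE 0.17). Abca1, which exports cholesterol, was the 1 member called higher, from 0.102 and 0.106 to 0.659 and 0.872 RPKM.

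The fall of this pathway was made in separate steps. Its median changed by -0.31 at confluence, by -0.91 in the first 24 h of osteogenic medium, by -0.10 from 24 h to 14 d, and by -1.36 from 14 d to 21 d. In the first 24 h 10 members were called lower and in the last step 20, and for Fdps the last step was -2.64. Genes of fatty acid synthesis went the same way, with 8 of 10 called lower and none higher, while of 9 fat cell genes 4 were called higher and 1 lower (median 0.96). Fads2, a desaturase of polyunsaturated fatty acids, fell from 166 and 172 to 6.82 and 8.06 RPKM (-4.38, SE 0.22).

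Targets of the hypoxia-inducible factor HIF rose. Of 24 genes of the hypoxia list 17 were called higher and none lower (median 1.55). Car9, a carbonic anhydrase used as a marker of hypoxia, went from 0.192 and 0.193 to 28.1 and 32.8 RPKM (log2 fold change 7.42, SE 0.25, adjusted p = 2.7e-06). Ankrd37, another target, rose 5.76 (SE 0.40), Egln3, a prolyl hydroxylase that marks HIF for destruction, 4.17 (SE 0.36), and Ddit4, an inhibitor of mTORC1, 2.88 (SE 0.09). Hif1a was at 29.9 and 26.9 RPKM and then at 14.6 and 14.4 RPKM, a log2 fold change of -0.85 that was not called (-1.01, called, with library size alone). The list median moved by -0.07, 0.04 and 0.10 in the steps within the library sets and by 1.08 from 24 h to 14 d, the step at which the index pair also changed. For Car9 that step was 6.70. The part of the library set in it was not tested. Of 26 glycolysis genes 7 were called higher (26.9%) and 3 lower (11.5%), beside 16.3% and 11.3% of all genes. Their median of 0.09 took the other sign under some alternatives.

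Of 28 genes of protein folding in the endoplasmic reticulum (ER) 15 were called higher and none lower between 14 d and 21 d, within 1 library set (median step 1.17), beside 1.52% of all genes called higher in that step. None was called in the 3 earlier steps. Between the ends 14 were called higher and none lower (median 1.01), and 10 with library size alone. Hspa5, the chaperone BiP, was at 230 and 234 RPKM in subconfluent cells and at 770 and 844 RPKM at 21 d (log2 fold change 1.92, SE 0.10), and the last step alone was 2.40 (adjusted p = 1.6e-04). Calr, calreticulin, gained 2.47 in that step and 1.32 (SE 0.11) over the whole course, since it had gone down before. Ddit3, the stress factor CHOP, went from 19.6 and 20.1 to 158 and 145 RPKM (3.05, SE 0.27), with 2.995 in the last step. Trib3, a target of CHOP and ATF4, rose from 4.54 and 4.56 to 88.5 and 92.2 RPKM (4.43, SE 0.22), with 4.34 in the last step.

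Between the ends the ATF4 and amino acid list was split, with 5 of 33 called higher (15.15%) and 7 lower (21.21%). Of all genes 16.3% were called higher and 11.3% lower. The list had a median of -0.38, with 3 called higher by library size alone or 3 lower by upper-quartile factors. It did rise late: from 14 d to 21 d 9 of the 33 were called higher and 1 lower (median step 0.56). Of all genes 1.52% were called higher and 2.45% lower in that step. From 24 h to 14 d, where the index pair changed, 5 members had been called lower and none higher (median step -0.64). Between the ends members of the list moved apart: Trib3 rose, as given above, while Slc7a11, the cystine importer, fell by 2.21 (SE 0.13). Atf3, counted here among the immediate early genes and not in this list, rose 3.72 (SE 0.16). Of 40 lysosomal genes 16 were called higher and none lower (median 0.61), and 24 were not called. The log2 fold change lay above 0 for 34 of the 40. Psap, the precursor of the saposins, went from 424 and 441 to 931 and 858 RPKM (1.16, SE 0.10), Ctsd, cathepsin D, from 210 and 221 to 492 and 464 RPKM (1.27, SE 0.12), and Idua, which degrades glycosaminoglycans, from 2.19 and 2.31 to 8.79 and 7.88 RPKM (2.01, SE 0.09).

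Interferon response genes formed another late group: 20 of 34 were called higher and 1 lower (median 1.47), with 16 called higher and none lower from 14 d to 21 d (median step 1.06). Their levels were low. Oas2, an antiviral synthase, had 1 count in each subconfluent library and 303 and 658 counts at 21 d, a ratio of 608 (95% counting interval 168 to 5028). Usp18, which removes ISG15, rose from 0.121 and 0.128 to 1.71 and 1.88 RPKM (3.96, SE 0.29), and Irf7, the factor that amplifies the response, from 0.390 and 0.343 to 2.68 and 3.56 RPKM (3.20, SE 0.22). Irf9, a DNA-binding factor of the interferon response, rose 2.03 (SE 0.15), and its step after 14 d was 2.09. Oas3, whose promoter is shown above, rose 3.81 (SE 0.52) but reached only 0.378 and 0.453 RPKM. Ifitm3, an abundant membrane protein, was the 1 member called lower, from 499 and 537 to 208 and 217 RPKM (-1.17, SE 0.17). On log2(RPKM + 1) in limma, a scale that understates the change of low genes, 13 members were called higher, and the count of ER folding genes was 9.

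Complement genes included some of the largest rises. Of 9 tested 6 were called higher and none lower. C3, the central component, went from 0.0307 and 0.0511 to 16.9 and 15.1 RPKM (log2 fold change 8.86, SE 0.34, adjusted p = 3.6e-06). Other secreted proteins among the largest rises were Apod, a lipid carrier, from 0.0956 and 0.111 to 65.3 and 62.2 RPKM (9.42, SE 0.26), and Hp, haptoglobin, with 3 counts in subconfluent cells and 2615 at 21 d, a ratio of 1103 (95% counting interval 377 to 5352). Selenbp2, Cgn and Selenbp1, with 1, 4 and 4 counts in subconfluent cells and 6896, 22361 and 8459 at 21 d, lie within 251.2 kb of chromosome 3, a closeness seen after the genes had been picked.

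**Figure D3:**
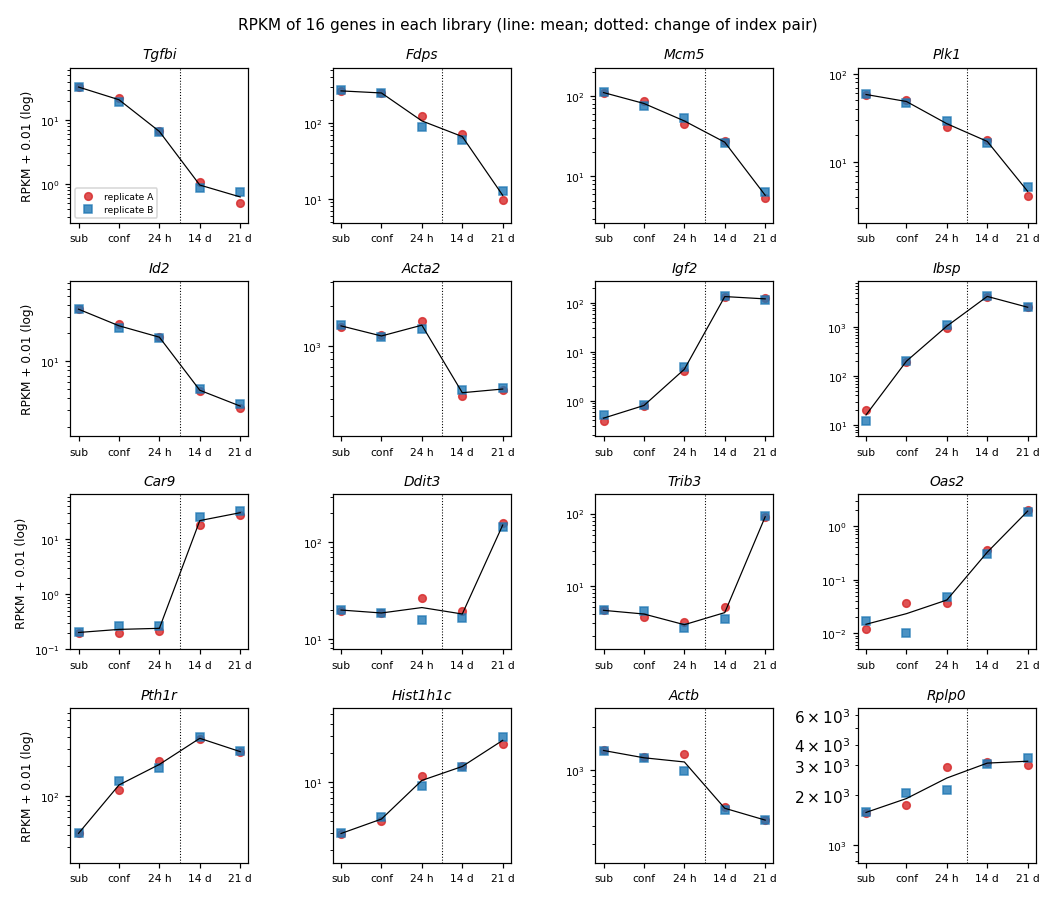
Level of 16 genes (RPKM + 0.01, log axis) in each of the 10 libraries at the 5 stages (x axis). Points are replicates A and B, the line joins their means, and the dotted line marks where the index pair changes. Fdps, Mcm5 and Plk1 take their deepest fall after 14 d, Ddit3 and Trib3 their rise, while Car9 changes between 24 h and 14 d and Ibsp rises from confluence on.

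Of 36 genes of the contractile cytoskeleton 19 were called lower and none higher (median -1.04), 13 of 20 among actins, myosins and their partners and 6 of 16 among the SRF and YAP factors and their targets. With upper-quartile factors 14 were called lower. Acta2, smooth muscle actin, was at 1401 and 1433 RPKM and then at 469 and 485 RPKM (-1.45, SE 0.13), and Tpm4, a tropomyosin of stress fibers, went from 477 and 472 to 132 and 137 RPKM (-1.71, SE 0.09). Zyx, zyxin of focal adhesions, fell by 1.72 (SE 0.11), of which 1.20 came with confluence. Ankrd1, a target of YAP, fell from 42.6 and 45.7 to 7.403 and 9.41 RPKM (-2.27, SE 0.13), with a called step of -1.09 at confluence. Of the genes of cell contact 8 of 25 were called in each direction, with 5 lower without 21 d replicate A. Gja1, the gap junction protein connexin 43, fell by 1.97 (SE 0.09), and Panx3, a channel protein of osteoblasts, rose by 2.94 (SE 0.11). Cd200, an immunoregulatory surface protein, rose from 0.907 and 0.809 to 53.1 and 52.7 RPKM (6.05, SE 0.12).

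In the Wnt pathway 20 of 44 genes were called higher, 1 lower and 23 in neither direction (median 0.91), and those called higher included ligands, receptors, inhibitors and targets. Of the ligands 4 of 11 were called higher. Wnt11 went from 0.0523 and 0.0915 to 2.88 and 2.74 RPKM (5.50, SE 0.26), and Wnt4 from 1.46 and 1.57 to 3.36 and 3.69 RPKM (1.34, SE 0.17). Of 16 receptors 6 rose, among them the co-receptor Lrp5, which sets bone mass, from 11.7 and 12.4 to 60.0 and 56.4 RPKM (2.39, SE 0.23). Of the inhibitors 6 of 11 rose. Wif1, which binds Wnt ligands, went from 2.32 and 2.35 to 65.8 and 61.5 RPKM (4.89, SE 0.13), and Dkk2, which binds LRP5 and LRP6, from 0.0763 and 0.114 to 3.79 and 3.56 RPKM (5.44, SE 0.27). Sfrp2, the most abundant of them, was the 1 gene called lower, from 199 and 204 to 82.7 and 80.0 RPKM (-1.19, SE 0.11). Axin2, a feedback target of β-catenin, rose 2.20 (SE 0.18), and Lef1, another target, was not called (1.06 and 0.933 against 1.03 and 1.09 RPKM). On log2(RPKM + 1) in limma 12 of the pathway were called higher.

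BMP and TGF-β genes were divided, with 10 of 35 called higher (28.6%) and 8 lower (22.9%), beside 16.3% and 11.3% of all genes. Their median (0.14) changed sign under some alternatives. Bmp4 fell from 37.7 and 41.0 to 7.03 and 6.01 RPKM (-2.48, SE 0.20), and Gdf6, another ligand of the family, rose from 0.151 and 0.0914 to 8.10 and 7.75 RPKM (6.07, SE 0.27).

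The 2 insulin-like growth factors changed in opposite directions. Igf1 fell from 8.37 and 8.17 to 0.953 and 1.07 RPKM (-2.91, SE 0.11), and Igf2, the fetal growth factor, rose from 0.373 and 0.492 to 126 and 114 RPKM (8.26, SE 0.20, adjusted p = 1.6e-06). H19, the imprinted non-coding RNA that lies beside Igf2 on chromosome 7, rose as well, from 1.72 and 2.02 to 48.6 and 57.1 RPKM (4.95, SE 0.19). Igf2 gained 2.55 in the first 24 h of osteogenic medium and its step after 14 d, -0.23, was not called, whereas H19 fell by 1.53 after 14 d. Igfbp4, a binding protein that holds these factors, went from 4.52 and 4.62 to 262 and 240 RPKM (5.89, SE 0.11), with a called rise in each step within the library sets (1.18, 1.37 and 1.12).

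Among hormone receptors, Pth1r, through which parathyroid hormone acts on osteoblasts, rose from 41.2 in both libraries to 281 and 283 RPKM (2.89, SE 0.15, adjusted p = 1.1e-05), of which 1.62 came with confluence. Vdr, the vitamin D receptor, fell from 15.2 and 14.5 to 5.55 and 5.26 RPKM (-1.34, SE 0.17). Esr2, estrogen receptor β, fell from 0.737 and 0.807 to 0.0766 and 0.0521 RPKM (-3.49, SE 0.36). Npr3, the clearance receptor for natriuretic peptides, fell from 11.3 and 10.8 to 0.483 and 0.495 RPKM (-4.38, SE 0.16). Of the 29 genes of osteoclast coupling and hormone receptors 10 were called higher (34.5%) and 3 lower (10.3%), beside 16.3% and 11.3% of all genes. Csf1, which osteoclast precursors need, was not called (-0.36), having fallen by 1.38 at confluence and risen by 1.15 after 14 d.

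**Figure D4:**
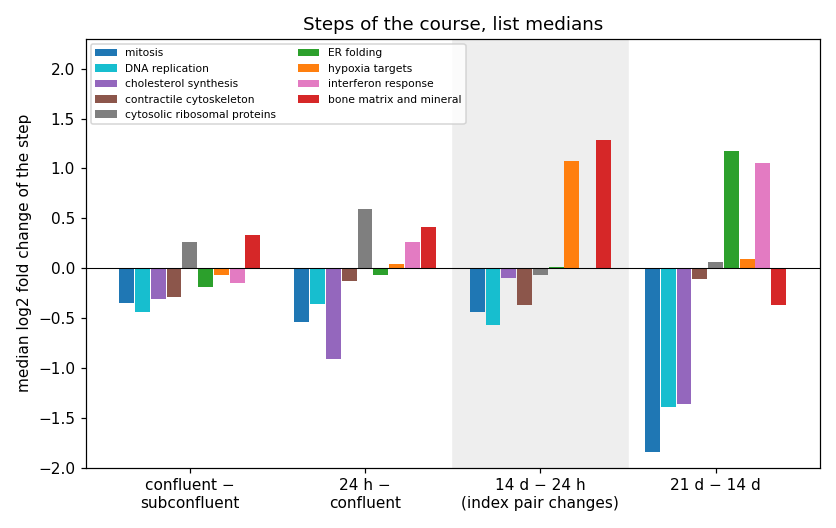
Median log2 fold change (y axis) of 9 gene lists in each of the 4 steps of the course (x axis). Grey shading marks the step from 24 h to 14 d, at which the index pair changes. Mitosis (-1.84), DNA replication (-1.40) and cholesterol synthesis (-1.36) have their lowest bars, and ER folding (1.17) and interferon response (1.06) their highest, from 14 d to 21 d.

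Of 28 genes of ribosome biogenesis 13 were called lower and none higher (median -0.98), while of 74 cytosolic ribosomal proteins 26 were called higher and none lower (median 0.85). Ribosomal proteins have many near-identical processed copies, so that single genes are uncertain. With library size alone as the scaling 10 of the 74 were called higher, and without single replicates 10 to 13 in 3 of the 4 cases. Few respiratory chain genes were called, 2 of 49 higher (4.1%) and 3 lower (6.1%), the latter 7 with library size alone. Of all genes 16.3% were called higher and 11.3% lower. The log2 fold change lay below 0 for 41 of the 49 (median -0.38).

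Of 16 genes commonly used as references in quantitative PCR 3 were called higher (18.75%) and 2 lower (12.5%), with a median of -0.30. These shares were near the 16.3% and 11.3% of all genes. Actb, to which PCR levels are often scaled, fell from 1375 and 1368 to 443 and 441 RPKM (-1.52, SE 0.16, adjusted p = 2.0e-04), and Ppia from 404 and 388 to 166.5 and 163.4 RPKM (-1.15, SE 0.22). Rplp0, Rpl13a and Eef1a1 rose by 1.14 (SE 0.19), 1.26 (SE 0.27) and 1.05 (SE 0.14). Rplp0 and Eef1a1 were under 2-fold with library size alone (0.98 and 0.89), Eef1a1 also without subconfluent replicate B (0.98), and Rpl13a was not called without subconfluent replicate A (adjusted p = 0.064). Gapdh was at 454 and 488 against 425 and 456 RPKM (0.02, SE 0.11), and Gusb at 28.3 and 29.7 against 23.8 and 23.04 RPKM (-0.19, SE 0.09). Of these, Actb, Ppia, Gapdh, Rplp0, Rpl13a and Eef1a1 have many processed copies and are uncertain.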

How the data were processed

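RNA of MC3T3-E1 cells had been sequenced as 51 bp paired-end reads. The submitters' processing notes name FastQC, TopHat2 2.0.9, R 3.0.1 and the mouse build mm10, and the counting tool and gene annotation are not given in the sources used here. The counts deposited by the authors are raw whole numbers, 1 row for each of 40620 Ensembl identifiers. The authors also deposited RPKM values per gene and library, complete for 40602 genes, and for the other 18 RPKM was computed here in the same way. How reads that fit several genes were counted is not stated, so genes with near-identical copies are uncertain. The second 21 d replicate was run in 2 lanes, and the authors' merged column was used, which was not the sum of the lanes for 13582 genes.

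Counts of all 10 samples were fitted in edgeR 4.0.16 (R 4.3.3) with TMM factors, genes kept by filterByExpr over the 5 stages, a quasi-likelihood model with 1 mean per stage, and Benjamini-Hochberg adjustment over 20808 genes. SE was taken from the log2 fold change and the F statistic (absolute change over root F). The steps were tested in the same fit. Alternatives used DESeq2 1.42.0, limma 3.58.1 on log2(RPKM + 1) and log2(RPKM + 0.1), other scalings and filters, single replicates left out, and a replicate block. The edgeR fit was tested on simulated data. The depth of the 10 samples was 44736156 to 162939333 counts per library. Symbols, positions and biotypes came from GENCODE vM21 (GRCm38), with a symbol for 39547 identifiers. Members and gene lists were chosen with earlier results of these data known. Genes were named by a rule: the 15 largest rises and falls among called genes with at least 5 CPM, and per list and role the called members with the largest change and those with the highest RPKM. Some genes that it names are not reported here. Counting intervals are 95% and cover counting error only.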

Additional observations from a re-analysis of the deposited data

How the results depend on the processing

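Of 5740 called genes, 3394 were higher and 2346 lower (59.1% higher). The count depended on the limit: 2354 genes (1558 higher, 796 lower) were called at more than 4-fold and 10553 (5671 and 4882) at any fold. On log2(RPKM + 1) limma called 3400 genes, 1353 of them higher (39.8%) and 2047 lower. The split also moved by over 10 points with library size alone (2828 higher, 2951 lower, 48.9% higher) and with limma on log2(RPKM + 0.1) (2558 and 2665, 49.0%). Library size alone shifted the median of all genes to -0.12 and upper-quartile factors to 0.17, from 0.04. Leaving out a single replicate gave 4837 to 5084 calls, 2657 to 2967 higher and 2117 to 2337 lower. Among protein-coding genes alone, an alternative chosen after seeing the data, 4259 genes were called.

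Deviations of same-lettered samples correlated from -0.328 to 0.168. With 2 libraries a stage these values cannot show whether same-lettered samples were handled in pairs. A fit with a replicate block called 5550 genes, 3263 higher and 2287 lower, and changed the call of none of the 134 genes named in the text.

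Over all alternatives the named genes gave 18 values of the other sign, all for genes not called. Ank was at 0.062 with upper-quartile factors and ran from -0.26 (without 21 d replicate A) to 0.10 (without 21 d replicate B). Col1a1 was at 0.12 with upper-quartile factors, 0.049 with a minimum of 10 counts per sample and 0.0086 among protein-coding genes, and from -0.076 (without subconfluent replicate B) over 0.0036 (without subconfluent replicate A) to 0.040 (without 21 d replicate B), and Col1a2 at 0.032 with upper-quartile factors. Pttg1 was at -0.077 with library size alone and at -0.033 and -0.035 with limma on RPKM + 1 and + 0.1. Gapdh was at -0.0054 with DESeq2 size factors, -0.14 with library size alone, -0.0085 with DESeq2 and -0.096 in both limma fits, and from -0.049 (without subconfluent replicate A) to 0.071 (without 21 d replicate A). Calls were lost in 47 values of named genes and gained in 5. The cause of these changes was not tested. With 2 replicates a stage, a change near 2-fold is the least certain.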

Other observations

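The strongest entries of the table at 21 d were not coding genes. The 30 genes of the mitochondrial genome were listed at 0 counts in every library, and 9 nuclear pseudogenes that match mitochondrial transcripts held 1.47% and 1.38% of all counts in subconfluent cells and 3.17% and 3.18% at 21 d. All 9 were called higher. Gm29216, on chromosome 1, which matches cytochrome oxidase subunit mt-Co1, went from 5836 and 5681 to 17410 and 17871 RPKM (log2 fold change 1.73, SE 0.20, adjusted p = 3.4e-04 by edgeR's quasi-likelihood test), and Gm28437, which matches mt-Co3, from 3296 and 3112 to 8519 and 8550 RPKM. Reads of mitochondrial transcripts and of their nuclear copies cannot be told apart in these counts. Pseudogenes of all kinds held 24.1% and 24.97% of the counts in subconfluent cells and 30.0% and 30.7% at 21 d.

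Other gene groups gave smaller counts, which stand beside the 16.3% of all genes called higher and the 11.3% called lower. Of 18 p53 targets 9 were called higher and 2 lower, with a median step of 0.82 from subconfluent to confluent. Of 17 clock genes 5 were called higher and none lower. Bhlhe41, a repressor of the clock, went from 0.515 and 0.510 to 18.1 and 17.5 RPKM (log2 fold change 5.23, SE 0.12), and Per1 rose 1.90 (SE 0.17). Of 25 immediate early genes 10 were called higher and 2 lower. Of 24 antioxidant genes 3 were called higher (12.5%) and 6 lower (25%). The extracellular superoxide dismutase Sod3 rose 2.99 (SE 0.08), and thioredoxin, Txn1, fell from 480 and 477 to 113 and 114 RPKM (-1.96, SE 0.21). Of 7 Hoxc genes 5 were called lower and none higher (median -1.88), against 2 of 7 Hoxa genes called higher and none lower, and no Hoxd gene had enough counts for a test. Of all 20 tested Hox genes 6 were called lower, but 3 without subconfluent replicate B or without 21 d replicate B and none with limma on log2(RPKM + 1), a scale that understates changes of genes as low as these. Of 546 lincRNA genes 135 were called higher and 50 lower.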
